A study of Mus musculus with 9 samples.

Results

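The genes described here encode the machinery of mitosis: the spindle assembly checkpoint, the cyclins and kinases of mitotic entry, the chromosomal passenger complex, centromeres and kinetochores, the regulators of anaphase, condensin with topoisomerase II, and the proteins of the spindle and of cytokinesis. They were taken by gene symbol from a list of 48, which leaves out the kinesins and the Nek kinases, and 47 of them were among the 18193 genes measured. Ccnb1 was not analysed here. Expression had been measured on 9 arrays of Neuro2a, a mouse neuroblastoma cell line, 48 h after transfer of an siRNA. Arrays 1 to 3 of each of the 3 groups are labelled siMyT1 (an siRNA against Myt1, a zinc finger transcription factor of the nervous system), siLSD1 (an siRNA against LSD1, a histone demethylase encoded by Kdm1a) and siControl. All groups share the cell line and the time, and 1 siRNA name per target is given, so an effect of the target and an effect of that siRNA cannot be told apart. The study deals with a complex of Myt1 and LSD1 in neural cells, and the comparisons ask which transcripts change when either protein is depleted. Whether replicates came from separate cultures is not in the labels, so the p-values cover the spread among these arrays only, which may be technical.

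Mitotic genes are transcribed late in the cell cycle. Their promoters often carry a cell cycle genes homology region, an element bound by MuvB complexes, which repress these genes in resting cells as part of DREAM and activate them with B-Myb and FoxM1 in cells that approach mitosis. CCAAT boxes bound by the factor NF-Y commonly lie upstream. Once Cdk1 with its cyclins has driven entry into mitosis, the checkpoint holds the anaphase-promoting complex (APC/C) inactive until every kinetochore is attached, and separase is then freed from securin to open cohesin. Since these transcripts peak late in the cycle, fewer cells in that stage and less RNA per cell cannot be told apart in RNA from a whole culture.

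The promoters of these genes were read from the RefSeq table of mouse build GRCm38.p6, which holds 250 bases before and 50 after each annotated start and matched 40 of the 48 genes with 45 starts. TTTGAA or TTCGAA, the letters searched for the homology region, lay on either strand of 32 starts (71.1%), against 15.1% of starts of all genes tested and 19.2% of the 32851 promoters of the table. CCAAT lay in 82.2% of the starts, against 37.4% of starts of all genes tested and 37.4% of all promoters. Both elements together were in 66.7% of starts, against 5.97% and 7.52%, and the E2F-type letters TTNGCGC were in 22.2%, against 8.98% and 6.36%. On the member starts, matches for the homology region and CCAAT overlapped on 1 start, matches for CCAAT and TTNGCGC on 3, and those for the homology region and TTNGCGC on 0. In 27 of the 29 genes with the homology region letters a match began from 50 bases before to 50 after the start. Mad2l1, Birc5, Nuf2, Pttg1 and Nusap1 held none of these letters in the window. A match is a description of the letters and not of binding. The 6 stretches shown run from 170 bases before to 30 after the start and belong to genes with the homology region letters that are described with full statistics below: 5 genes that were lower in siLSD1 and Bub3, for which that difference did not pass the test. They are Spc25 at chr2:69206184-69206383 on the minus strand, Anln at chr9:22389177-22389376 on the minus strand, Ncapg at chr5:45669755-45669954 on the plus strand, Mki67 at chr7:135716350-135716549 on the minus strand, Bub1 at chr2:127831830-127832029 on the minus strand and Bub3 at chr7:131560200-131560399 on the plus strand. Each reads 5′ to 3′ along the gene, and capitals mark the homology region letters and CCAAT, or their reverse complements.
Spc25: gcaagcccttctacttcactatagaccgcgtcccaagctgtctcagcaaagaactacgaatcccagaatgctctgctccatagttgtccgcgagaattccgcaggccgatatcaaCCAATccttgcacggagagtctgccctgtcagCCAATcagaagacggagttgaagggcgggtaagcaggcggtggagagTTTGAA
Anln: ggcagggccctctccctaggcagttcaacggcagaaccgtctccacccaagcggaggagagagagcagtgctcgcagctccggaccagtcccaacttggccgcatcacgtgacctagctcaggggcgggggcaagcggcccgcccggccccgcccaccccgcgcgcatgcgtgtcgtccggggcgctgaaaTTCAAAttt
Ncapg: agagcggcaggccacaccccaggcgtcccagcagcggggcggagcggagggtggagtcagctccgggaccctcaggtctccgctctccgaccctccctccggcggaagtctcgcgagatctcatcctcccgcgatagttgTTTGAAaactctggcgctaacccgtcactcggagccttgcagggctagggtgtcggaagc
Mki67: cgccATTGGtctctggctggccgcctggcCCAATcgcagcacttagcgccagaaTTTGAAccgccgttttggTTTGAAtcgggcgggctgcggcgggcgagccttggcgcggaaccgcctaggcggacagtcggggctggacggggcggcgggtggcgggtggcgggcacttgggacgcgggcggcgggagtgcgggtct
Bub1: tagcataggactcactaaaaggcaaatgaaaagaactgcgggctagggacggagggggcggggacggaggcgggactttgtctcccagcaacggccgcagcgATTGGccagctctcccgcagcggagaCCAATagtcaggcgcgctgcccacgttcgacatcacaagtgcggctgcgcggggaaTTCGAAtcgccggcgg
Bub3: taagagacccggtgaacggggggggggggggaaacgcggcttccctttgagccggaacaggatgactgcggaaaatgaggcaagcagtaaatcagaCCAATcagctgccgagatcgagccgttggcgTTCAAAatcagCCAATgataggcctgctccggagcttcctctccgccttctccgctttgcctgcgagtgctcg

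**Figure D1:**
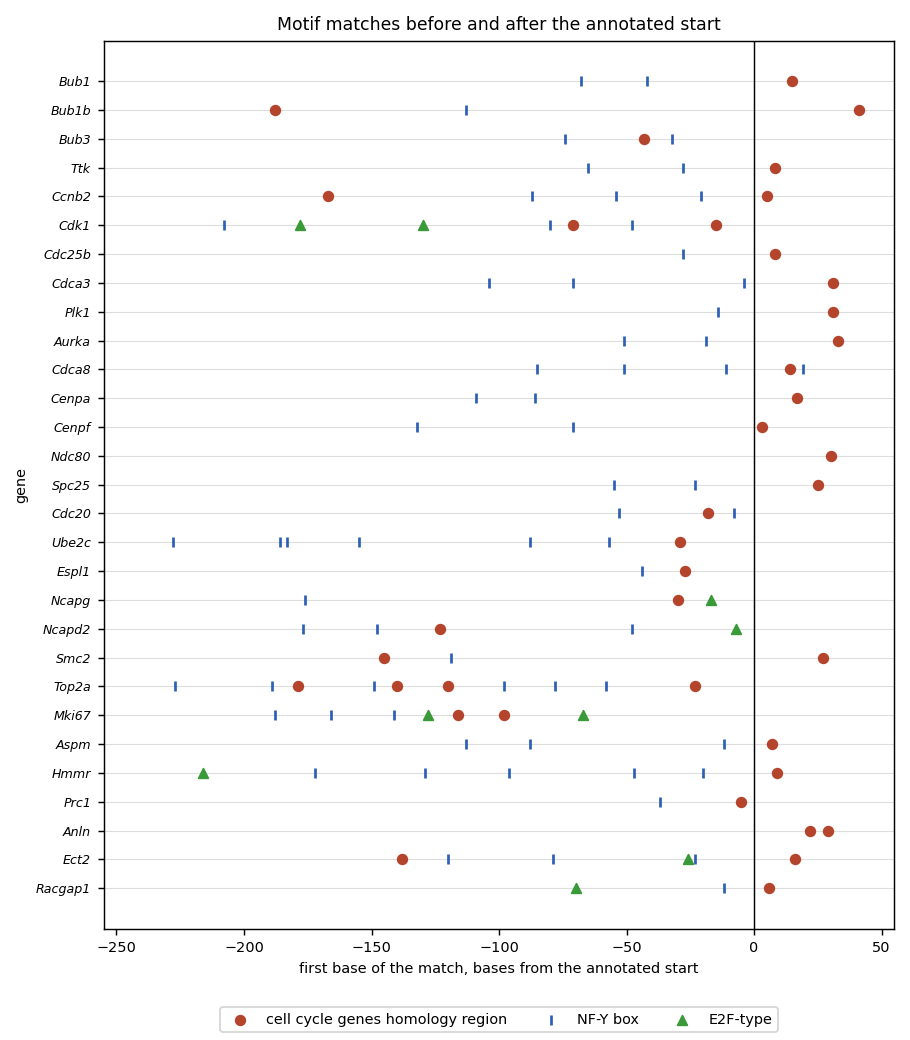
Positions of motif matches in the promoter windows of the 29 mitotic genes with homology region letters (circles), with CCAAT on either strand (bars) and TTNGCGC (triangles). The horizontal axis gives bases from the annotated start (vertical line), each row is 1 gene, and genes with several starts show the one with the lowest coordinate. Most circles lie within 50 bases of the start, mostly with bars to their left.

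Before the mitotic genes, the arrays were checked. Kdm1a measured 4.80, 4.05 and 4.63 units on the siLSD1 arrays, against 28.1, 30.1 and 28.9 units in siControl, and Myt1 measured 0.625, 0.882 and 0.474 units on the siMyT1 arrays, against 4.60, 5.27 and 4.82 units in siControl, so the targeted transcripts were low where the labels say. Units are the deposited linear intensities. Of 15 measured Neuro2a and sympathoadrenal markers, 12 were above 1 unit on all 9 arrays, while Nefl and Nefm averaged below the pseudocount and Dbh averaged 0.993 units. Array medians lay between 0.302 and 0.424 units, and no batch is recorded in the labels or in the table. Fold changes below are differences of log2(intensity + 0.196), adjusted p-values come from limma over all 18193 genes, and a gene is said to be higher or lower, to rise or to fall where that p was under 0.05.

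After siLSD1, 24 of the 47 mitotic genes fell relative to siControl and 0 rose. The falls spread over the checkpoint, mitotic entry, kinetochore and condensin genes. On the probe set that stood for each gene they ended at 58.8% of the siControl level for Mad2l1 and 82.0% for Cdk1. The others lay between them. Of these genes, 7 had 12 other probe sets with means of at least 1 unit. All 12 had negative log2 changes, from -0.18 for Aurkb to -0.995 for Smc2, and 9 passed in the fit of all probe sets. The share of members lower, 51.1%, stands beside 8.90% of all genes tested that changed, 4.93% lower and 3.97% higher. That background is not matched for brightness: the mean intensities of the members had a median of 6.94 units, those of all genes 1.16 units. Changes of dim genes are understated. The median log2 change of the members was -0.31, that of all genes -0.03, and 41 of the 47 members had a negative difference. Groups did not overlap for 32 members, each lower in siLSD1, where 16.1% of all genes were lower without overlap and 10.7% higher. At an unadjusted p under 0.05, limma gave 32 lower and 0 higher members, beside 2268 lower and 1578 higher among all 18193 genes. Leaving out siControl replicate 1 gave 15 lower members, and 0 members rose under any alternative that was run. Of all genes, 722 were higher and 897 lower, a split that median centring of each array turned to 1248 and 788.

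**Figure D2:**
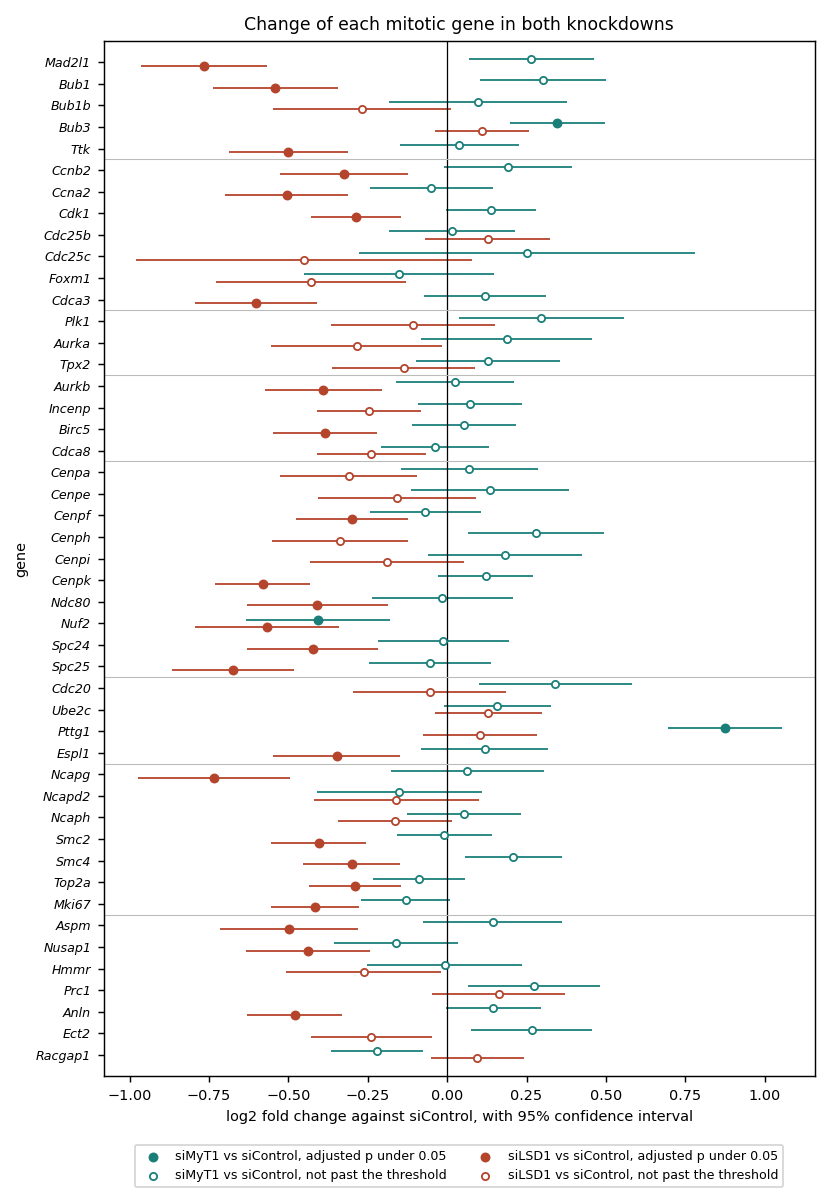
Log2 fold change of each mitotic gene against siControl with its 95% confidence interval, for siMyT1 (teal) and siLSD1 (red), with rows grouped by role. Filled points passed the adjusted threshold of 0.05. Filled red points lie between -0.77 and -0.29, and 3 teal points are filled, those of Bub3, Nuf2 and Pttg1.

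Among 5 spindle assembly checkpoint genes 3 fell in siLSD1, Mad2l1, Bub1 and Ttk, with a median over the 5 genes of -0.50. Mad2l1, which encodes the checkpoint protein that holds Cdc20 inactive, measured 7.48, 5.998 and 7.60 units in siLSD1, against 12.3, 12.95 and 10.9 units in siControl. All siLSD1 arrays lay below the lowest siControl array, and the difference was -0.77 (SE 0.09, adjusted p = 0.000162, n = 3 each). Bub1, a kinetochore kinase that recruits other checkpoint proteins, measured 9.23, 7.42 and 8.17 units in siLSD1, against 13.4, 11.9 and 11.1 units in siControl (-0.54, SE 0.09, adjusted p = 0.00204), again without overlap. Ttk, the kinase Mps1 that starts checkpoint signalling, had a difference of -0.50 (SE 0.09, adjusted p = 0.00247). For Bub3, which binds Bub1 at kinetochores, siLSD1 arrays read 34.7, 31.04 and 30.03 units and siControl arrays 30.2, 28.1 and 30.3 units, with overlap and a difference of 0.11 (95% interval -0.04 to 0.26). The difference of Bub1b, the BubR1 gene, was -0.27 (interval -0.55 to 0.01), and its other bright probe set gave -0.09.

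Of 7 mitotic entry genes 4 fell in siLSD1, Cdca3, Ccna2, Ccnb2 and Cdk1. Cdca3, which takes part in the degradation of the Cdk1 inhibitor Wee1, measured 5.75, 4.83 and 5.04 units in siLSD1, against 8.31, 8.17 and 7.50 units in siControl, and every siLSD1 array was below every siControl array (-0.60, SE 0.09, adjusted p = 0.000752). Averaged with its 2 dim probe sets, Cdca3 had an adjusted p of 0.126. Ccna2, cyclin A2, differed by -0.51 (SE 0.09, adjusted p = 0.00282). Cdk1, the mitotic kinase itself, differed by -0.29 (SE 0.07, adjusted p = 0.0147), and Ccnb2, cyclin B2, by -0.33 (SE 0.09, adjusted p = 0.0476). Foxm1, the transcription factor of late cell cycle genes, had a difference of -0.43 that did not pass (SE 0.14, adjusted p = 0.0756). In the fit of all probe sets its adjusted p was 0.103. There, its probe sets at means of 3.55 and 2.86 units each gave -0.39 (adjusted p = 0.038 and 0.069). A dim one at 0.045 units had a difference of 0.02. The phosphatase gene Cdc25b had one of 0.13 (interval -0.07 to 0.32), and Cdc25c, at 0.447 ± 0.15 units in siLSD1 and 0.672 ± 0.11 units in siControl (SD, n = 3 each), had a difference of -0.45 with a wide interval (-0.98 to 0.08).

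Of Plk1, Aurka and Tpx2, which build the bipolar spindle, 0 of 3 passed by limma, 1 of them at an unadjusted p under 0.05, with differences of -0.11 (interval -0.37 to 0.15), -0.29 (-0.55 to -0.02) and -0.14 (-0.36 to 0.09). In the anaphase group 1 of 4 genes fell, Espl1, which encodes separase (-0.35, SE 0.09, adjusted p = 0.0332). Cdc20, the APC/C activator, differed by -0.06 (interval -0.30 to 0.18), Ube2c, its ubiquitin-conjugating enzyme, by 0.13 (-0.04 to 0.30) and Pttg1, securin, by 0.10 (-0.08 to 0.28). Their intervals do not reach the Mad2l1 fall, the largest among the members. That of Cdc20 does include the smallest called fall, Cdk1 at -0.29. Of the 4 chromosomal passenger genes, which correct faulty attachments, Aurkb (-0.39, SE 0.09, adjusted p = 0.0117) and Birc5, survivin (-0.39, SE 0.08, adjusted p = 0.00589), fell. Incenp and Cdca8, borealin, had differences of -0.25 and -0.24 with adjusted p-values of 0.0636 and 0.0854. Other Cdca8 probe sets, at means of 8.2 and 2.94 units, gave only -0.03 and -0.08 (adjusted p = 0.907 and 0.819 in the fit of all probe sets). Those of Incenp, at means of 4.55 and 1.28 units, gave -0.35 and -0.11 (adjusted p = 0.141 and 0.803 there).

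In the centromere and kinetochore group all 10 differences were negative and 6 genes fell: Spc25, Cenpk, Nuf2, Spc24, Ndc80 and Cenpf. All 4 subunits of the Ndc80 complex, the kinetochore's hold on microtubules, were among them. Spc25 measured 4.53, 4.60 and 4.50 units in siLSD1, against 7.73, 7.53 and 6.87 units in siControl, a difference of -0.67 (SE 0.09, adjusted p = 0.000339) between groups that did not overlap. Nuf2 measured 3.19, 3.14 and 3.28 units in siLSD1, against 4.77, 5.38 and 4.41 units in siControl (-0.57, SE 0.11, adjusted p = 0.00392), also without overlap. Its partners Spc24 and Ndc80 differed by -0.42 (adjusted p = 0.0135) and -0.41 (adjusted p = 0.0254). Cenpk, a subunit of the constitutive centromere network, measured 7.49, 7.77 and 6.85 units in siLSD1, against 11.28, 11.03 and 11.03 units in siControl, below every control array (-0.58, SE 0.07, adjusted p = 0.000155). With its 2 dim probe sets averaged in, its adjusted p was 0.133. Cenpf, a large kinetochore protein, differed by -0.30 (adjusted p = 0.0361), while Cenph (-0.34, adjusted p = 0.0524), the histone variant gene Cenpa (-0.31, adjusted p = 0.0765), Cenpi (-0.19, adjusted p = 0.384) and the motor gene Cenpe (-0.16, adjusted p = 0.511) did not pass.

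Of 7 genes of chromosome structure 5 fell in siLSD1: Ncapg, Mki67, Smc2, Smc4 and Top2a. Ncapg, a subunit of condensin I, measured 4.77, 3.47 and 4.17 units in siLSD1, against 7.10, 7.39 and 6.44 units in siControl (-0.74, SE 0.11, adjusted p = 0.000898). The groups were separate, and its other probe set gave -0.62. Smc4, an ATPase of both condensins, measured 32.5, 28.2 and 31.7 units in siLSD1, against 39.1, 38.1 and 36.6 units in siControl (-0.30, SE 0.07, adjusted p = 0.0173). Although these arrays did not overlap, the Smc4 call did not hold after median centring or without the intensity trend. It was also lost when siLSD1 replicate 2 or siControl replicate 1 or 2 was left out (adjusted p up to 0.0855 over these alternatives). The other Smc4 probe sets, at means of 32.2 and 22.9 units, gave -0.34 and -0.57 (adjusted p = 0.0153 and 0.00222 in the fit of all probe sets). Its partner Smc2 differed by -0.40 (SE 0.07, adjusted p = 0.0022), and Top2a, topoisomerase II alpha, by -0.29 (SE 0.07, adjusted p = 0.0153). Mki67, whose product Ki-67 coats mitotic chromosomes and marks cycling cells, measured 14.8, 13.9 and 14.7 units in siLSD1, against 19.8, 18.3 and 19.9 units in siControl, with all siLSD1 arrays lower (-0.42, SE 0.06, adjusted p = 0.00108). Ncaph and Ncapd2, also of condensin I, had differences of -0.17 and -0.16 that did not pass (adjusted p = 0.286 and 0.527).

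Among 7 spindle and cytokinesis genes 3 fell, Aspm, Anln and Nusap1. Anln, the contractile ring scaffold anillin, measured 7.70, 6.92 and 7.07 units in siLSD1, against 10.7, 10.35 and 9.41 units in siControl, with no overlap (-0.48, SE 0.07, adjusted p = 0.000641). Averaging in its dim second probe set left an adjusted p of 0.221. Aspm, a spindle pole protein, differed by -0.50 (SE 0.10, adjusted p = 0.00712) and Nusap1, a microtubule bundler, by -0.44 (SE 0.09, adjusted p = 0.00764). The hyaluronan and microtubule binder Hmmr differed by -0.26 and the cytokinesis factor Ect2 by -0.24, neither past the threshold (adjusted p = 0.196 and 0.126). Other Hmmr probe sets, at means of 3.44, 2.59 and 2.40 units, gave -0.15, -0.32 and 0.17. Prc1 and Racgap1, which organise the central spindle, had differences of 0.16 (interval -0.05 to 0.37) and 0.09 (-0.05 to 0.24). The second bright Racgap1 probe set gave 0.21 (adjusted p = 0.0572 in the fit of all probe sets).

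**Figure D3:**
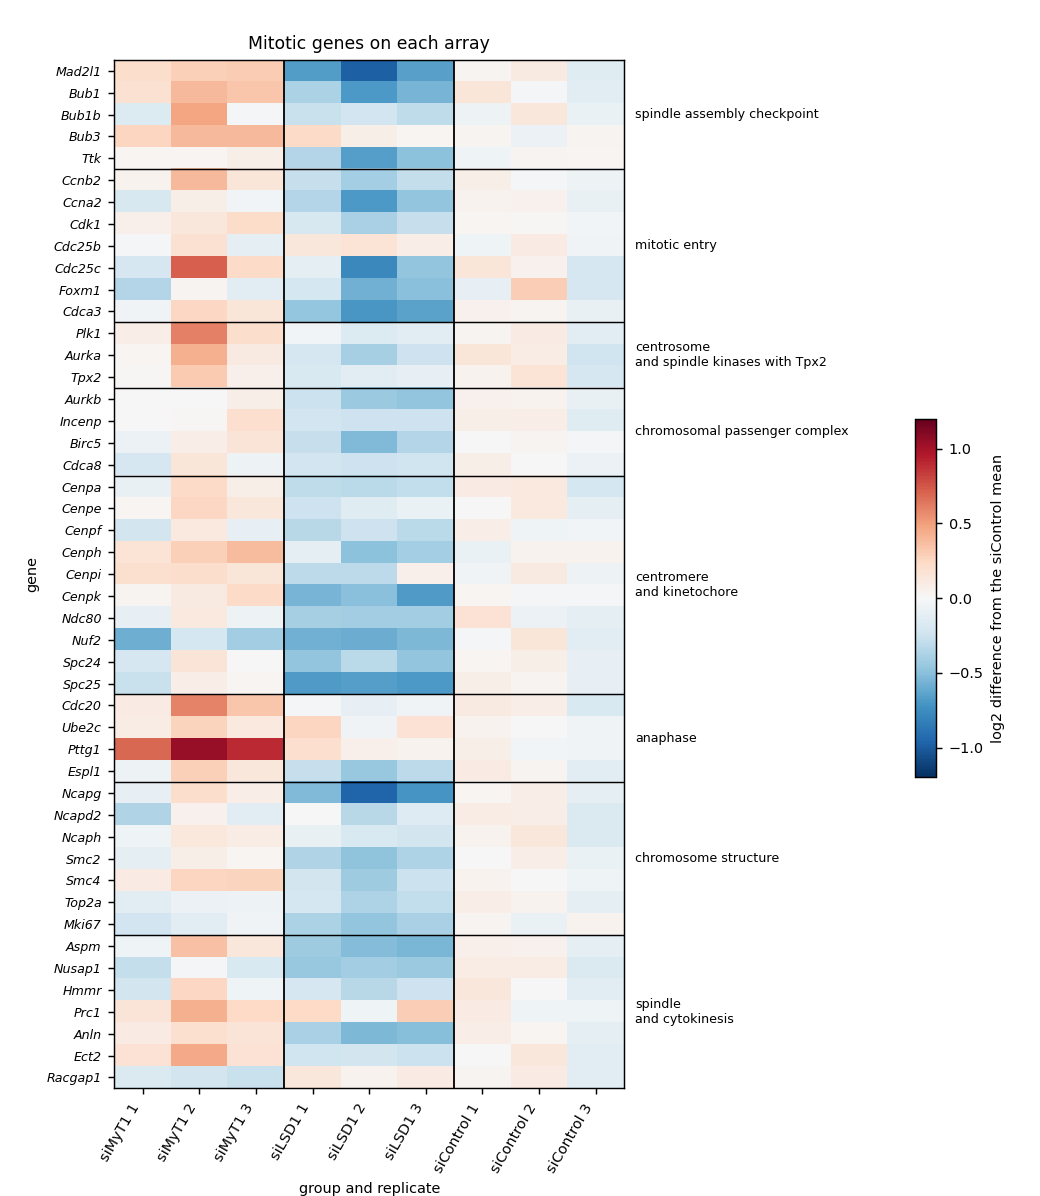
Log2 difference of each mitotic gene on each array from its siControl mean (colour, red higher and blue lower), with genes grouped by role and arrays ordered siMyT1, siLSD1 and siControl. The siLSD1 columns are mostly blue, down to -0.98 for Mad2l1 on siLSD1 replicate 2, and Pttg1 is red on all 3 siMyT1 arrays, up to 1.04 on replicate 2.

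The arrays of a group were not alike across these genes. The median member lay 0.26, 0.40 and 0.31 below the siControl mean in log2 on siLSD1 replicates 1, 2 and 3, with 40, 43 and 40 of 47 members below it. On the siMyT1 arrays that median was -0.04, 0.21 and 0.11, and on the siControl arrays it was 0.04, 0.05 and -0.11. On siControl replicate 3, 43 of the 47 members lay below the siControl mean, and the median of all genes was also lowest there among the siControl arrays, at -0.06. On siMyT1 replicate 2, 41 members lay above that mean, and the median of all genes was 0.12. Without siControl replicate 3, 24 members were lower in siLSD1 and 0 higher, as many as with it. The part of these array shifts in single results was not tested.

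After siMyT1, 3 of the 47 genes changed relative to siControl: Pttg1 and Bub3 rose and Nuf2 fell. Of all genes tested 7.41% changed, 5.12% higher and 2.29% lower, so 3 of 47 is near the background. This background, too, includes many genes dimmer than the members. The median log2 change of the members was 0.10, against 0.05 over all genes, and 13 members were higher and 2 lower without overlap, where 16.5% and 7.55% of all genes were. Pttg1, the securin that keeps separase inactive until anaphase, measured 20.6, 26.3 and 23.7 units in siMyT1, against 13.3, 12.4 and 12.3 units in siControl. Every siMyT1 array lay far above the siControl arrays, and the rise of 0.88 (SE 0.08, adjusted p = 5.27e-05) passed under every alternative, the only one of the 3 calls to do so. Its second probe set, at a mean of 3.49 units, gave 0.72 (adjusted p = 0.00346 in the fit of all probe sets).

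Bub3 measured 35.4, 38.7 and 38.8 units in siMyT1, against 30.2, 28.1 and 30.3 units in siControl (0.35, SE 0.07, adjusted p = 0.00901). These groups did not overlap, but the probe set is of the kind (_s_at) shared by several transcripts, and without such probe sets the difference was 0.14 (adjusted p = 0.379), with median centring 0.24 (adjusted p = 0.0932), with all its probe sets averaged 0.10 (adjusted p = 0.783) and without the intensity trend 0.35 (adjusted p = 0.0592). Nuf2 measured 3.15, 4.14 and 3.57 units in siMyT1, against 4.77, 5.38 and 4.41 units in siControl. The highest siMyT1 array was just under the lowest siControl array, and the fall of 0.41 on the log2 scale (SE 0.11, adjusted p = 0.0336) did not pass when siMyT1 replicate 1 or 3, or siControl replicate 1 or 2, was left out, in a fit of these groups alone or without the intensity trend (adjusted p from 0.0631 to 0.112). Nuf2 was the single member that passed in both knockdowns, and both comparisons use the same siControl arrays. The share of all genes that passed in both is not given here. Among the other checkpoint genes, Bub1 read 13.7, 15.9 and 15.2 units in siMyT1, above every siControl array (0.30, SE 0.09, adjusted p = 0.0659, from 0.0116 to 0.0499 under the 5 alternatives in which it passed). Mad2l1 read 13.9, 14.7 and 14.9 units, also above every siControl array (0.27, SE 0.09, adjusted p = 0.107, and 0.0285 and 0.0348 under the 2 alternatives in which it passed). Cdc20 differed by 0.34 (SE 0.11, adjusted p = 0.0874) and Racgap1 by -0.22 (SE 0.07, adjusted p = 0.067, from 0.0106 to 0.0493 under the 6 alternatives in which it passed). In the fit of all probe sets, the adjusted p of this Racgap1 probe set was 0.101. There, its second bright probe set, at a mean of 28.1 units, gave -0.27 and passed (adjusted p = 0.0244). A dim one at 0.01 units gave 0.10. The 24 genes that fell in siLSD1 had siMyT1 differences from -0.41 to 0.30, with a median of 0.05.

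Median centring moved the median difference of all genes by -0.11 in this comparison and gave 2 members higher and 3 lower, and quantile normalization gave 6 and 2. Among all genes the split of 931 higher and 417 lower became 605 and 1161 with median centring and 1264 and 1216 with quantile normalization. Without siMyT1 replicate 1, 5 members were higher and 0 lower. In the same groups the summed intensity of 11 mesenchymal markers was 85.0 to 89.6 units in siMyT1, 54.4 to 61.7 units in siLSD1 and 43.7 to 47.6 units in siControl. Of these markers 3, Sparc, Fn1 and Pdgfrb, exceeded 1 unit on all arrays, while Col1a1, Col3a1, Pdgfra, Lum, Thy1 and Twist1 averaged below the pseudocount. Summed Neuro2a markers ran from 182 to 191 units in siMyT1, 258 to 284 units in siLSD1 and 225 to 248 units in siControl. The actin 3′ to 5′ ratio was 1.11 to 1.12 in siMyT1, 1.12 to 1.23 in siLSD1 and 1.15 to 1.19 in siControl, and the part of these measures in the results was not tested.

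**Figure D4:**
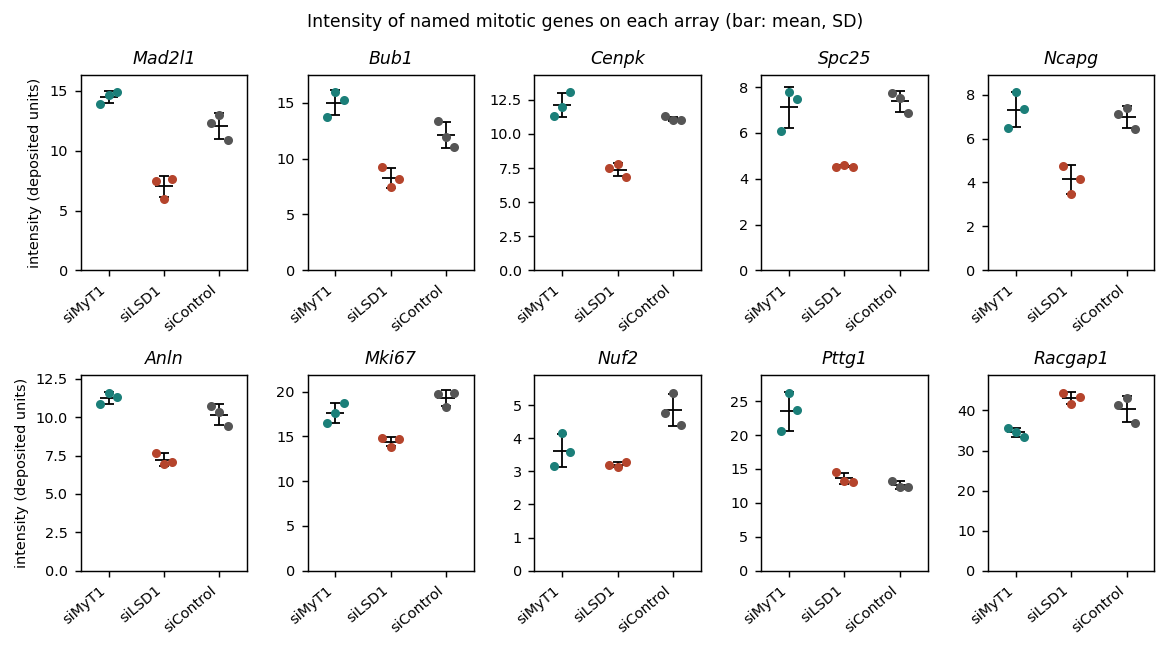
Intensity in deposited units of 10 mitotic genes on each array (points) with the group mean and SD (bars, n = 3), for siMyT1, siLSD1 and siControl. The siLSD1 arrays of Mad2l1, Bub1, Cenpk, Spc25, Ncapg, Anln and Mki67 lie below both other groups, both knockdowns of Nuf2 lie below siControl, and Pttg1 is high in siMyT1.

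Set against each other, the knockdowns differed in 32 members, against 24 that differed between siLSD1 and siControl and 3 between siMyT1 and siControl. In siMyT1 relative to siLSD1, 31 of the 47 members were higher and 1, Racgap1, lower, where 13.2% of all genes were higher and 5.58% lower. The median difference of the members was 0.40, that of all genes 0.09, and 45 of 47 were positive. Without overlap, 38 members were higher and 1 lower, where 33.0% of all genes did not overlap, 23.3% higher and 9.70% lower. This comparison shares the siLSD1 arrays with the one of siLSD1 against siControl, so its values are not separate evidence of the falls. Its calls comprised 4 of 5 checkpoint genes, 4 of 7 mitotic entry genes, 3 of 4 passenger genes, 7 of 10 kinetochore genes, 3 of 4 anaphase genes, 4 of 7 chromosome structure genes and 5 of 7 spindle and cytokinesis genes. Of the 3 genes Plk1, Aurka and Tpx2, the 2 kinase genes Plk1 and Aurka passed.

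The checkpoint pair Mad2l1 and Bub1 differed most. Mad2l1 stood at 14.5 ± 0.52 units in siMyT1 and 7.02 ± 0.89 units in siLSD1 (1.03, SE 0.09, adjusted p = 9.23e-06, SD, n = 3 each). Bub1 stood at 14.96 ± 1.1 units in siMyT1 and 8.27 ± 0.91 units in siLSD1 (0.84, SE 0.09, adjusted p = 4.2e-05). Ncapg differed by 0.80 (SE 0.11, adjusted p = 0.000281), Pttg1 by 0.77 (SE 0.08, adjusted p = 3.99e-05), Cdca3 by 0.72 (SE 0.09, adjusted p = 0.000116), Cenpk by 0.70 (SE 0.07, adjusted p = 2.02e-05), Anln by 0.63 (SE 0.07, adjusted p = 4.95e-05) and Smc4 by 0.51 (SE 0.07, adjusted p = 0.000286). In siMyT1, Ncapg measured 6.49, 8.10 and 7.36 units, Cdca3 7.77, 9.54 and 8.85 units and Cenpk 11.34, 11.98 and 13.04 units. Anln measured 10.86, 11.59 and 11.30 units there and Smc4 40.5, 45.5 and 45.6 units, and for these 5 genes every siMyT1 array lay above every siLSD1 array given above. For Pttg1, at 14.6, 13.2 and 13.1 units in siLSD1, the siMyT1 arrays were also all higher. Pttg1 averaged 13.6 ± 0.85 units in siLSD1 and 12.7 ± 0.55 units in siControl, groups that overlapped, whereas for Mad2l1 the siLSD1 level was the one that differed from siControl by the test. Nuf2, at 3.62 ± 0.50 units in siMyT1 and 3.20 ± 0.071 units in siLSD1, had a difference of 0.16 (interval -0.07 to 0.39). Genes that had not passed against siControl in either knockdown passed here, among them Cenph (0.62, SE 0.10, adjusted p = 0.000805), Ect2 (0.50, SE 0.09, adjusted p = 0.00143), Aurka (0.47, SE 0.12, adjusted p = 0.0178), Plk1 (0.40, SE 0.12, adjusted p = 0.0318) and Cdc20 (0.40, SE 0.11, adjusted p = 0.0245).

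Racgap1, a GTPase-activating subunit of the centralspindlin complex, ran the other way. It measured 35.7, 34.6 and 33.4 units in siMyT1, against 44.5, 41.5 and 43.3 units in siLSD1, with all siMyT1 arrays lower. The difference was -0.32 (SE 0.07, adjusted p = 0.00518), its second bright probe set gave -0.47, and the call passed under every alternative. Ect2, its partner in placing the cleavage furrow, was higher in siMyT1 in the same comparison. After median centring, which moved the median of all genes by -0.17, 24 members were higher and 2 lower, and the calls of Bub3 (adjusted p = 0.633) and Mki67 (adjusted p = 0.373) were lost. Without siMyT1 replicate 2 or 3 or siLSD1 replicate 2 or 3 the Bub3 call was lost as well (adjusted p up to 0.135), as it was with the replicate block (adjusted p = 0.0629), without the intensity trend (adjusted p = 0.101), with its probe sets averaged (adjusted p = 0.327) and without _s_at probe sets (adjusted p = 0.356). The call of Cdca3, Cenpk or Anln was lost when all probe sets were averaged (adjusted p = 0.127, 0.0582 and 0.0593). Of all genes, 2408 were higher and 1015 lower, which median centring turned to 1207 and 2534 and quantile normalization to 2268 and 2047.

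**Figure D5:**
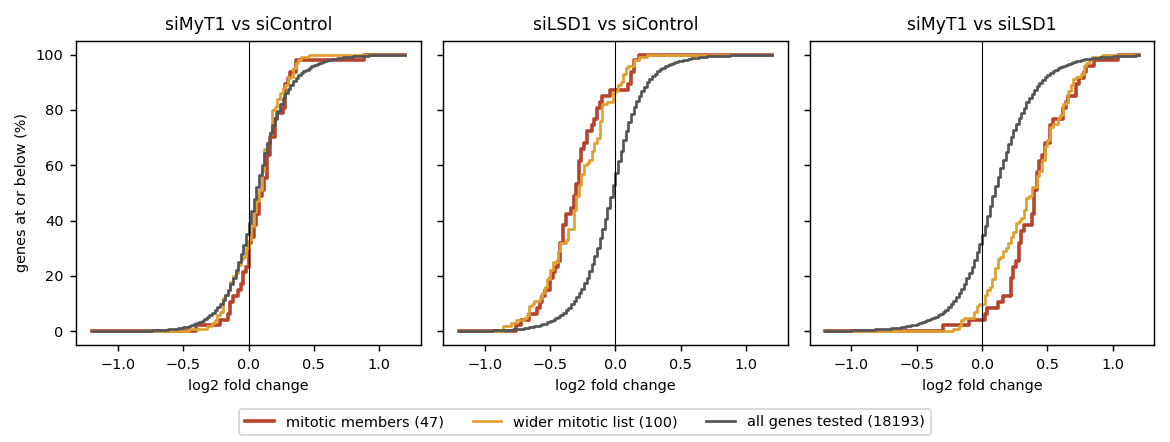
Share of genes (vertical axis, percent) at or below each log2 fold change (horizontal axis) for the 47 mitotic genes (red), 100 other mitotic genes (yellow) and all 18193 genes tested (grey) in the 3 comparisons. The red and yellow curves lie left of the grey one for siLSD1 against siControl and right of it for siMyT1 against siLSD1, and all 3 lie close together for siMyT1 against siControl.

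A wider list of 102 mitotic genes outside the 47, of which 100 were measured, was read in the same fit. After siLSD1, 46 of them fell and 0 rose. At an unadjusted p under 0.05, limma gave 61 lower and 2 higher, beside 2268 and 1578 of all 18193 genes. The median of the 100 genes was -0.29, and 2 rose under median centring or quantile normalization. The falls made up 11 of 19 other kinetochore genes, 12 of 20 spindle, centrosome and cytokinesis genes, 7 of 13 cohesin genes, 2 of 3 condensin II genes, 4 of 11 mitotic entry regulators, 3 of 8 checkpoint genes and 5 of 12 regulators of the DREAM, MuvB and NF-Y type and 2 of 14 APC/C genes, where 4.93% of all genes were lower. Whether these shares differ from each other was not tested. Fbxo5, the APC/C inhibitor Emi1, measured 11.7, 9.55 and 10.2 units in siLSD1, against 18.4, 19.3 and 19.8 units in siControl (-0.87, SE 0.08, adjusted p = 2.06e-05). Trip13, the ATPase that remodels Mad2, measured 12.8, 11.5 and 12.3 units in siLSD1, against 20.7, 19.6 and 18.3 units in siControl (-0.67, SE 0.07, adjusted p = 4.38e-05). Both genes showed no overlap between groups. Nfyb, the NF-Y subunit gene, differed by -0.68 (SE 0.08, adjusted p = 8.15e-05) and Cdca5, sororin, the protector of cohesin, by -0.67 (SE 0.08, adjusted p = 0.000186). The count of falls was 27 without siControl replicate 1, 26 without siControl replicate 2, 27 without siLSD1 replicate 2 and 26 without siLSD1 replicate 3.

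After siMyT1, 6 of these 100 genes rose and 4 fell, a split of 2 and 10 with median centring and 11 and 11 with quantile normalization. Of all genes 5.12% were higher and 2.29% lower, 7.41% in all, so 10 of 100 is near the background. The Cdk1-binding subunits Cks1b and Cks2 rose by 0.33 (SE 0.07, adjusted p = 0.00844) and 0.40 (SE 0.08, adjusted p = 0.011), Rbl2, the DREAM pocket protein p130, by 0.46 (SE 0.10, adjusted p = 0.0126) and Mad1l1, the kinetochore anchor of Mad2, by 0.36 (SE 0.09, adjusted p = 0.0231). The falls were those of Ensa, an inhibitor of the phosphatase PP2A in mitosis (-0.46, SE 0.08, adjusted p = 0.0043), Rad21, the cohesin subunit cut by separase (-0.34, SE 0.07, adjusted p = 0.0168), the kinase gene Pbk (-0.26, SE 0.07, adjusted p = 0.0287) and Nfya (-0.28, SE 0.08, adjusted p = 0.0463). Leaving out single arrays gave 2 to 12 calls here, the fewest without siMyT1 replicate 2, 4 without siMyT1 replicate 3 and 5 without any one siControl replicate. In siMyT1 relative to siLSD1, 57 of the 100 were higher and 0 lower, where 13.2% of all genes were higher and 5.58% lower. At an unadjusted p under 0.05 by limma, 69 were higher and 2 lower, beside 3931 and 1582 of all 18193 genes. The median difference of the 100 genes was 0.37, and the adjusted split was 43 and 9 with median centring. Cenpq, of the centromere network, stood at 10.6 ± 0.98 units in siMyT1 and 5.58 ± 0.50 units in siLSD1 (0.90, SE 0.09, adjusted p = 1.59e-05, SD, n = 3 each). Trip13 and Fbxo5 each differed by 0.77 (adjusted p = 8.59e-06 and 3.11e-05) and Nfyb by 0.70 (adjusted p = 3.77e-05).

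The siLSD1 changes were set beside the promoter letters, as a description. Among the 29 genes with the homology region letters, the median log2 change in siLSD1 was -0.29 and 15 fell, and among 10 measured genes with a promoter in the table and none of these letters it was -0.36 and 5 fell. Over all 2528 tested genes whose promoters held the letters, 6.25% were lower in siLSD1, and their median was -0.04. Of all 18193 genes tested 4.93% were lower, but only 14452 of these have a promoter in the table, so the sets are unlike. As single examples, Bub3, with these letters and 2 CCAAT boxes in the stretch shown above, had a difference of 0.11 in siLSD1. Mad2l1, whose window held none of the motifs, fell to 58.8% of the siControl level. A link between the letters and the changes was not tested.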

How the data were processed

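The authors deposited linear intensities, 1 for each of 45101 probe sets on each of 9 arrays. Per the labels, RNA was labelled with biotin. How the authors corrected for background and scaled these deposited intensities, and with which software, is not given in the sources used here. Of 34945 probe sets with 1 symbol in the platform annotation, the one with the highest mean over all arrays stood for each of 18193 genes. Values were analysed as log2(intensity + 0.196), which understates the change of dim genes. The pseudocount is 32 on a scale on which the 2% trimmed mean is 500, where 1 deposited unit is 163.6. Group means over 9 arrays were fitted with limma 3.58.1 in R 4.3.3 (lmFit, eBayes with an intensity trend), two-sided, with Benjamini-Hochberg adjustment over all genes and a threshold of 0.05. With 3 arrays a group, an exact permutation test of 1 gene cannot go below p = 0.1. The number of arrays limits the precision.

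The members and gene lists were chosen with earlier results of these data known. Given with every array's value were, per comparison, the 8 called members with the smallest adjusted p, and any called in both knockdowns or in the minority direction. Up to 4 genes per direction were named from the wider list. The labels do not say whether replicate numbers pair arrays. Same-numbered arrays' deviations from their group means correlated at -0.026 to 0.038, which cannot show that these arrays were handled apart. The alternatives were other scalings, pseudocounts, filters, probe set rules, variance models, a replicate block and single arrays left out.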

Additional observations from a re-analysis of the deposited data

How the results depend on the processing

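Among the members given with every array's value, no call changed direction under an alternative. The 24 falls in siLSD1 numbered 17 to 31 under the other settings, and 15 to 24 with single arrays left out. The 32 calls of siMyT1 against siLSD1 numbered 25 to 39, and 24 to 36 with single arrays left out. The 3 calls of siMyT1 against siControl became 8 with quantile normalization, 5 with median centring, with robust moderation or with array weights, 11 without dim genes and 1 without the intensity trend, and 2 to 5 with single arrays left out. In the wider list, 10 calls of siMyT1 became 22 with quantile normalization, 16 without dim genes, 4 with all probe sets averaged, 3 without the trend, 17 with array weights and 2 to 12 with single arrays left out. There, 46 calls of siLSD1 became 29 without the trend and 26 to 40 with single arrays left out, and 57 of siMyT1 against siLSD1 became 45 to 62. Over all genes, 1348 siMyT1 calls became 2480 with quantile normalization, 862 with probe sets averaged, 765 without the trend and 650 to 1450 with single arrays left out (650, 744, 699 and 709 without siControl replicate 1, siControl replicate 3, siMyT1 replicate 2 and siMyT1 replicate 3). The 1619 siLSD1 calls became 2809 with quantile normalization, 1079 with probe sets averaged, 2966 with array weights and 965 to 1318 (970 without siControl replicate 1, 965 without siLSD1 replicate 3). The 3423 calls between knockdowns became 2331 to 3705 with single arrays left out. Some settings hold fewer genes or arrays, and the cause of these changes in number was not tested. With the replicate number as a block, the members called were 3, 20 and 30, and the wider siMyT1 calls 5.

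In every setting that holds the gene, 11 of 24 falls in siLSD1 were called, Mad2l1, Bub1, Ttk, Ccna2, Birc5, Spc25, Nuf2, Ncapg, Smc2, Mki67 and Aspm, and 17 of 32 calls between knockdowns. The matching share over all genes is not given here, so whether member calls are more or less stable than others cannot be read from these counts.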
